A study of Danio rerio with 6 samples.

Results

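FGF signalling was followed through 9 genes: the ligands fgf3, fgf8a, fgf17 and fgf24, the feedback inhibitors spry2, spry4 and dusp6, and the transcription factors etv4 and etv5b. They were taken by zebrafish symbol from the 24832 gene IDs of the RNA tables, and all 9 were found, each as 1 row. RNA-seq had been done on whole zebrafish embryos at the 10-somite stage, with 1 library of control embryos and 1 of dnmt1 morphants. Morphants are embryos given an antisense morpholino, here against dnmt1, the enzyme that copies cytosine methylation onto new DNA strands. Details not given in the sources used here include the morpholino's type and dose, any injection of the controls, the fish strain and the number of embryos in a library. The libraries held 9.9 (control) and 10.1 (morphant) megareads assigned to genes. The targeted gene dnmt1 was counted 2423 times in the control library and 3194 times in the other, a ratio of 1.3 (95% exact counting interval 1.23 to 1.37). Since a morpholino that blocks translation need not lower the transcript, these reads do not check the label. The series also has 4 libraries of immunoprecipitated methylated DNA at 80% epiboly, which were not used here because no gene positions on their build were at hand.

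Fibroblast growth factors are secreted proteins that bind receptor tyrosine kinases together with heparan sulfate and switch on the Ras and MAP kinase cascade. The cascade acts through ETS-domain transcription factors such as Etv4 and Etv5b, whose own genes are FGF targets. It also induces its own brakes: Sprouty proteins, which hold back the cascade, and Dusp6, a phosphatase that inactivates ERK. In zebrafish embryos FGFs act at the midbrain-hindbrain boundary, in rhombomere 4, in the forebrain, in ear induction and in the growing tailbud, and transcripts of etv4, etv5b, spry4 and dusp6 are commonly used to read where the pathway is active.

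The morphant library held fewer reads of the ligands in sum and of each feedback inhibitor, while the Etv genes together were near their control level. Summed over the 3 inhibitors, 4197 control reads stood against 3277 morphant reads, a ratio of 0.769 (0.734 to 0.805). The 4 ligands together had 1095 and 922 reads, a ratio of 0.829 (0.759 to 0.906). The Etv genes together had 5123 and 5216 reads, a ratio of 1.0 (0.964 to 1.04). That sum joins etv4, higher at 1.15 (1.08 to 1.23), with etv5b, lower at 0.938 (0.894 to 0.983). Each sum is weighted by its most abundant gene. Ratios are morphant over control, with reads scaled to the total of each library. With 1 library per group there is no replicate, no test and no p-value. Every interval covers counting error only, reads not being independent molecules. In whole embryos, fewer cells that express a gene and less of its RNA per cell cannot be told apart.

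Of the 9 genes, 8 had a ratio below 1, against 45.7% of the 13575 genes that had 50 reads or more when the libraries were added. The counting interval lay wholly below 1 for 6 of the 9 (fgf3, fgf8a, spry2, spry4, dusp6 and etv5b), against 15.8% of all genes. It lay wholly above 1 for 1 of the 9, etv4, against 19.5%. Intervals narrow with more reads, and these shares of all genes were not matched to the depth of the 9. The 9 were also chosen with earlier results of these data known, so the contrast with all genes is not independent of that choice. The deeply read etv5b (3570 and 3400 reads) counts among the 6 at a ratio of 0.938. All 9 passed the read minimum, fgf24 with the fewest reads. The median log2 ratio was -0.34, a ratio of 0.792, beside 0.03 for all genes. The differences were small. No gene of the 9 was 1.5-fold lower, as 3.24% of all genes were, and none was 1.5-fold higher, as 6.11% were. None was 2-fold lower (0.545% of all genes) or 2-fold higher (1.62%).

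**Figure D1:**
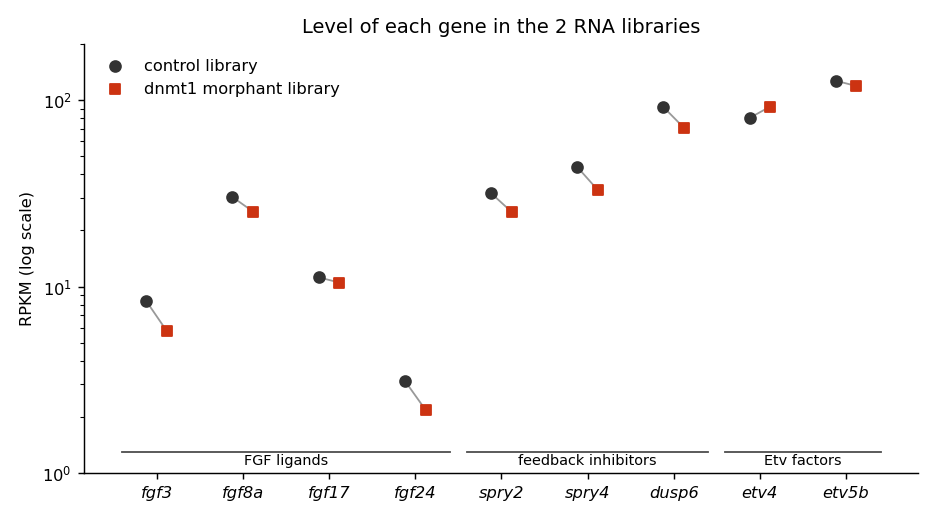
Level of each of the 9 genes in RPKM (reads scaled to gene length and to library total), on a log axis, in the control library (circles) and the dnmt1 morphant library (squares); each point is 1 library, with no error bar. All genes but etv4 are lower in the morphant library, and fgf24 is the least abundant, at 3.12 and 2.18 RPKM.

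Among the ligands, fgf8a had the highest level. Fgf8a is the signal of the midbrain-hindbrain boundary, without which the cerebellum does not form, and is also made in the tailbud and heart field. For its gene (ENSDARG00000003399) the control library gave 668 reads and the morphant library 566, levels of 30.2 and 25.2 RPKM. The morphant library was lower, with a ratio of 0.834 (counting interval 0.745 to 0.934). Of all genes tested, 14.9% had a lower ratio. The share of fgf8a in the summed RPKM of the 7 secreted ligands with at least 50 reads was 50.5% for controls and 51.1% for morphants.

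The ligand gene fgf3 (ENSDARG00000068094), which acts with fgf8a in rhombomere 4 and in inducing the ear, had the lowest ratio of the 9 genes. The control library gave 156 reads and the morphant library 109, levels of 8.35 and 5.75 RPKM. The ratio was 0.688 (0.534 to 0.884), and 3.98% of all genes lay lower. At this depth the ratio of fgf3 could not be told from that of fgf8a. Their ratio of ratios was 0.825, with a counting interval of 0.624 to 1.09.

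For each of the other ligands the interval held 1. The ligand gene fgf17 (ENSDARG00000023520), a close relative of fgf8a that is also transcribed at the midbrain-hindbrain boundary, had 223 and 213 reads in the control and morphant libraries, or 11.2 and 10.5 RPKM. Its ratio of 0.94 was the closest to 1 of the 4 ligands, with an interval of 0.776 to 1.14. The ligand gene fgf24 (ENSDARG00000037677), needed for the pectoral fin bud and, with fgf8a, for posterior mesoderm, had 48 and 34 reads, or 3.12 and 2.18 RPKM. Its ratio of 0.697 was close to that of fgf3, but the interval of 0.436 to 1.1 also holds 1. Control reads covered 64.1% of the listed length of fgf24 and morphant reads 60.1%, against 82.2 to 99.7% for the other 8 genes over both libraries.

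The 3 feedback inhibitors lay close together. The Sprouty gene spry2 (ENSDARG00000078308) was read 474 times in the control library and 381 times in morphants (31.7 and 25.1 RPKM), with a ratio of 0.791 (0.690 to 0.908). Its relative spry4 (ENSDARG00000068732), a widely used readout of FGF activity in zebrafish, had 1071 and 817 reads, or 43.8 and 32.9 RPKM, a ratio of 0.751 (0.685 to 0.823). The ERK phosphatase gene dusp6 (ENSDARG00000070914) had 2652 and 2079 reads, or 91.8 and 70.9 RPKM, a ratio of 0.772 (0.728 to 0.818). All were lower in the morphant library, and the interval of each ended below 1. Between them the ratios of ratios were 1.05 for spry2 over spry4 (0.892 to 1.24), 1.03 for spry2 over dusp6 (0.883 to 1.19) and 0.973 for spry4 over dusp6 (0.872 to 1.09), so that no difference among the 3 was detectable.

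The Etv genes did not share the lower ratios of the inhibitors. Etv4, also known as Pea3, and Etv5b, also known as Erm, are ETS-domain activators. In the control library etv4 (ENSDARG00000018303) had 1553 reads, and in the morphant library 1816, or 80.2 and 92.3 RPKM. It was the only gene of the 9 that was higher in the morphant library, with a ratio of 1.15 (1.08 to 1.23). The gene etv5b (ENSDARG00000044511) had 3570 and 3400 reads, or 127 and 119 RPKM, a ratio of 0.938 (0.894 to 0.983). Both ratios lie between the 25th and the 75th percentile of all genes tested, 0.9 and 1.17. Of all genes, 72.7% had a lower ratio than etv4 and 32.3% a lower one than etv5b.

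**Figure D2:**
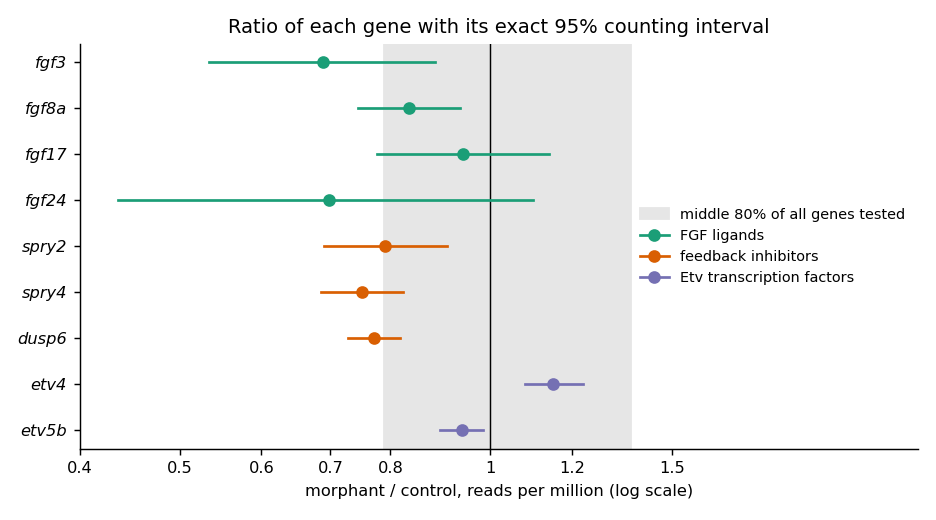
Ratio of morphant to control reads, scaled to library totals (log axis), for each of the 9 genes, with its exact 95% counting interval as a bar; the grey band spans the 10th to 90th percentile of all 13575 genes tested, 0.789 to 1.37. The points of fgf3, fgf24, spry4 and dusp6 lie left of the band, with spry2 at its edge, and etv4 is the only gene to the right of 1.

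The division between inhibitors and Etv genes did not depend on how the libraries were scaled, because a ratio of ratios between 2 genes of the same libraries cancels the library size. For dusp6 over etv4 it was 0.670, with a counting interval of 0.613 to 0.733. The RPKM of dusp6 was 1.15 times that of etv4 in the control library and 0.768 times in the morphant library, so the order of these genes was exchanged. For spry4 over etv4 the ratio of ratios was 0.652 (0.581 to 0.732), and for spry2 over etv4 it was 0.687 (0.589 to 0.802). Against etv5b the values were 0.823 for dusp6 (0.764 to 0.887), 0.801 for spry4 (0.722 to 0.889) and 0.844 for spry2 (0.730 to 0.976). The 2 Etv genes also differed from each other, with 1.23 for etv4 over etv5b (1.13 to 1.33). Not all relatives followed this division. The relative etv5a had a ratio of 0.868 (0.806 to 0.936). Of 13 other genes listed as inhibitors, 7 were below 0 on the log2 scale (45.7% of all genes) and 6 above. Among the 7 was spry1 at 0.853 (0.727 to 1.0), and among the 6 il17rd at 1.05.

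All 36 pairs of the 9 genes were compared in this way, with intervals not adjusted for their number. The share among pairs of other genes of similar depth was not computed, so the counts that follow cannot be called particular to the 9. In 12 pairs the interval left out 1. Of these, 7 involved etv4, which differed from every gene of the 9 but fgf17. The gene etv5b was in 5, those with fgf3, spry2, spry4, dusp6 and etv4. The remaining pair was fgf17 over spry4, at 1.25 (1.01 to 1.55). Of the 12 pairs of a ligand with an inhibitor, that was the only one whose interval left out 1: the ratio of ratios of fgf8a to dusp6 was 1.08 (0.951 to 1.23) and that of fgf8a to spry4 was 1.11 (0.959 to 1.29).

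By level the 9 genes spanned from 127 RPKM (etv5b) to 3.12 RPKM (fgf24) in the control library. The downstream genes were more abundant than the ligands: the summed RPKM was 207 for the Etv genes, 167 for the inhibitors and 52.8 for the ligands, and in the morphant library 211, 129 and 43.6. In the control library the order was etv5b, dusp6, etv4, spry4, spry2, fgf8a, fgf17, fgf3 and fgf24. In the morphant library dusp6 and etv4 changed places, and so did spry2 and fgf8a. The latter exchange was not detectable beyond counting error, since the ratio of ratios of fgf8a to spry2 was 1.05 (0.881 to 1.26). Among all genes tested, ranked by RPKM, etv4 stood at place 910 in the control library but 772 in morphants, dusp6 at 778 and 1057, spry4 at 1827 and 2435, and fgf3 at 7276 and 8921.

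The spread of ratios is wider for genes with few reads, so each gene was also set beside genes of similar depth, those with between 0.5 and 2 times its reads. Of 3032 such genes for spry4, 4.65% had a lower ratio, and of 1398 for dusp6 likewise 4.65%. The share was 8.14% of 4311 genes for spry2, 3.72% of 4780 for fgf3 and 8.52% of 3532 for fgf24. It was 12.5% for fgf8a, 31.4% for fgf17 and 32.4% for etv5b. For etv4 it was 86.6% of 1994 genes. These places describe the 2 libraries, and many other genes lay lower than dusp6 or spry4.

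**Figure D3:**
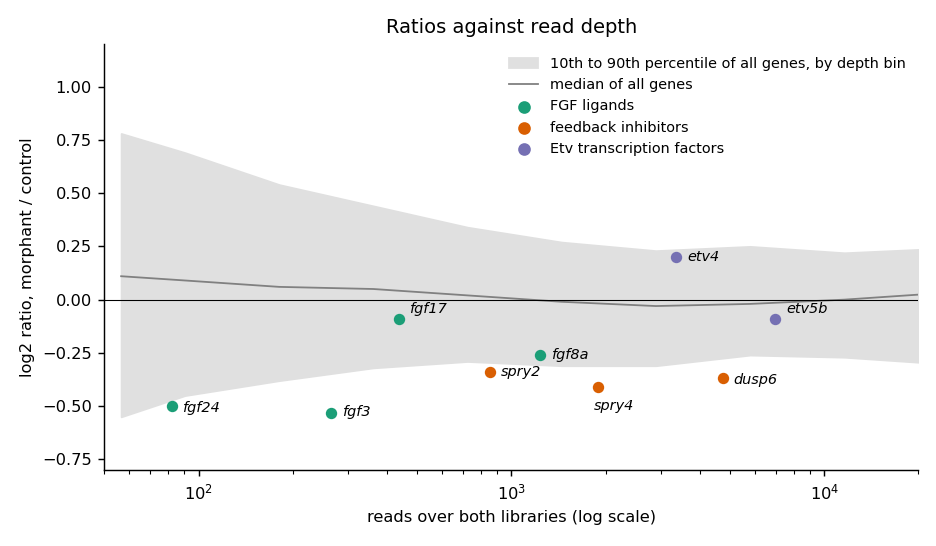
The log2 ratio of morphant to control for the 9 genes (coloured points) against their reads over both libraries (log axis); the grey band is the 10th to 90th percentile of all genes tested in bins of depth and the grey line their median. The genes fgf3, fgf24, spry2, spry4 and dusp6 lie below the band, which runs from -0.45 to 0.69 between 64 and 128 reads and from -0.31 to 0.23 between 2048 and 4096 reads.

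For 3 of the 9 genes (fgf8a, fgf17 and etv4) the symbol rests on the zebrafish gene number in the table's KEGG column. In the newer assembly GRCz12tu, 5 of the 9 have a span that overlaps that of another annotated gene, and the strand setting of the authors' counting is among the details not given. For fgf3 the overlapping gene was ano1a, which had 181 and 180 reads, a ratio of 0.979 (0.792 to 1.21). For fgf17 it was adgrd2, with 102 and 144 reads, a ratio of 1.39 (1.07 to 1.81). For fgf8a, etv4 and etv5b it was a long noncoding RNA. Reads of fgf3, fgf8a, fgf17, etv4 and etv5b may therefore include some from these partners, and their part in the ratios was not tested. No overlap was listed for fgf24, spry2, spry4 and dusp6.

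Of the other secreted FGF ligands, 19 of 20 were found and 3 had at least 50 reads. All 3 were below 1, as were 45.7% of all genes, with intervals that hold 1. They were fgf18b, with 126 and 104 reads and a ratio of 0.813 (0.621 to 1.06), fgf1b, with 35 and 28 reads and 0.788 (0.462 to 1.33), and fgf4, the neighbour of fgf3 in the genome, with 50 and 44 reads and 0.866 (0.564 to 1.33). The 4 ligands chosen here made up 88.5% of the summed RPKM of the 7 in each library. That sum leaves out ligands with fewer reads. Of these, fgf2 (5.18 and 14.8 RPKM, on a short listed model) and fgf10b (2.87 and 4.23) had higher RPKM than fgf4 and fgf1b. The share therefore holds for these 7 only. The second fgf8 gene, fgf8b, had 2 reads in each library.

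Of the FGF receptor genes, the kinase receptors were below 1 and the receptor-like genes fgfrl1a and fgfrl1b above. The list had 5 of 7 genes found, with a median log2 ratio of -0.02. None was 1.5-fold higher (6.11% of all genes) or lower (3.24%). That median counts the receptor-like genes and leaves out both FGFR1 genes, which were not found by symbol. The most abundant receptor, fgfr4, had 3395 and 2783 reads, 68.4 and 55.2 RPKM, and a ratio of 0.807 (0.767 to 0.849). The interval of each of the other 4 held 1. They were fgfr2 at 0.960 (0.891 to 1.04), fgfr3 at 0.989 (0.825 to 1.19), the receptor-like decoy gene fgfrl1a at 1.1 (0.982 to 1.24) and fgfrl1b at 1.03 (0.905 to 1.17). A further 2 IDs, added with values in view and outside these counts, matched FGFR1 proteins. The one matched to receptor 1 had 1832 and 1612 reads (ratio 0.866, interval 0.810 to 0.927), and the one matched to receptor 1b had 661 and 483 (0.719, 0.638 to 0.810). Both intervals lay below 1, as did that of fgfr4, while those of fgfr2 and fgfr3 held 1. Of all genes tested, 45.7% had a ratio below 1 and 15.8% an interval wholly below 1, shares not matched for depth.

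Other genes listed as inhibitors of the pathway were mixed. The list includes flrt3, which is not an established inhibitor and is part of the counts below. Of 14 listed, 13 were found and had enough reads. Their median log2 ratio was -0.10, with 7 below 0 (45.7% of all genes) and 6 above. Wholly below 1 were 5 intervals (15.8% of all genes) and wholly above 1 (19.5%), shares again not matched for depth. Only the phosphatase gene dusp2 was past 1.5-fold, with 62 and 32 reads, a ratio of 0.508 (0.321 to 0.791). Of all genes, 3.24% were 1.5-fold lower and 6.11% 1.5-fold higher. Lower intervals also belonged to dusp4 at 0.766 (0.653 to 0.898), dusp1 at 0.795 (0.717 to 0.882), spred1 at 0.813 (0.677 to 0.974) and flrt3, the most abundant of the list, at 0.838 (0.795 to 0.883). The interval above 1 was that of cblb at 1.24 (1.03 to 1.49), and the highest ratio was that of dusp5 at 1.27 (0.909 to 1.78). The FGF antagonist il17rd, also called Sef, had 1419 and 1511 reads, a ratio of 1.05 (0.974 to 1.13). Its interval and that of spry4 did not overlap.

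Among other ETS genes, etv5a, the closest relative of etv5b, had 1491 and 1315 reads and a ratio of 0.868 (0.806 to 0.936). The ETS repressor gene erf had 2117 and 1677 reads and a ratio of 0.780 (0.731 to 0.832), and ets2 had 85 and 107 and a ratio of 1.24 (0.924 to 1.67). Over the 9 ETS genes with enough reads the median log2 ratio was -0.09, with 5 below 0 (45.7% of all genes). None was 1.5-fold lower (3.24%) or higher (6.11%).

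The kinase cascade and the heparan sulfate machinery had medians near 0. For the counts that follow, 45.7% of all genes tested were below 0, 3.24% were 1.5-fold lower and 6.11% 1.5-fold higher. Of the 22 Ras and MAP kinase genes with enough reads, 12 were below 0, the median log2 ratio was -0.03 and the only one past 1.5-fold was the Ras gene hrasb, with 185 and 120 reads (0.639, 0.503 to 0.808). Of 15 heparan sulfate genes, 7 were below 0 and none was past 1.5-fold, with a median of 0.01. The outermost were the core protein gene sdc3 at 0.788 (0.719 to 0.864) and the sulfatase gene sulf2b at 1.19 (0.999 to 1.41). Of the intracellular FGF homologous factors, which are not secreted and do not signal through receptors in the usual way, only fgf13b had enough reads (30 and 31, ratio 1.02).

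**Figure D4:**
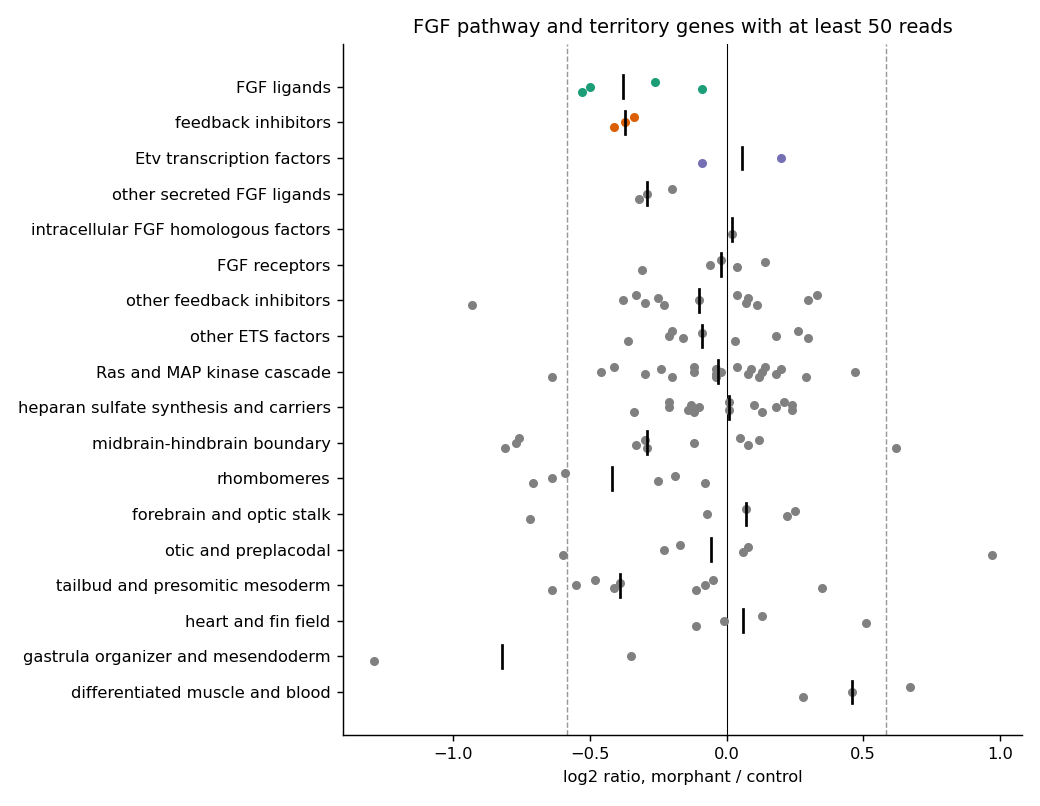
Log2 ratio of morphant to control for every gene with at least 50 reads in the lists of the FGF pathway and of the embryonic territories (1 point per gene, vertical ticks for list medians, dashed lines at 1.5-fold). The 3 feedback inhibitors sit together between -0.41 and -0.34. The medians of receptors (without the FGFR1 genes), cascade and heparan sulfate genes lie between -0.03 and 0.01, and the rhombomere and tailbud lists have medians of -0.42 and -0.39.

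Markers of the territories that make or receive FGF also differed between the libraries, in both directions. For the counts below 0 that follow, the share over all genes tested was 45.7%. Of 11 midbrain-hindbrain boundary genes with enough reads, 7 were below 0 (median log2 ratio -0.29), with gbx2 at 0.568 (0.478 to 0.675), gbx1 at 0.583 (0.421 to 0.802) and en2a at 0.584 (0.474 to 0.717), and in the other direction pax5 at 1.57 (1.03 to 2.40). All 6 rhombomere genes were below 0 (median -0.42), with hoxb1a, the rhombomere 4 gene, at 0.612 (0.531 to 0.704), mafba at 0.640 (0.567 to 0.722) and irx7 at 0.664 (0.579 to 0.760). In the tailbud list 8 of 9 were below 0 (median -0.39). There, 6 of the 9 intervals lay wholly below 1 (15.8% of all genes, not matched for depth). The lowest was cyp26a1 at 0.643 (0.559 to 0.738), while the notochord and tailbud gene tbxta had 0.930 (0.855 to 1.01). The gene above 0 was tbxtb at 1.29 (0.921 to 1.81). The median was 0.07 for 5 forebrain genes, of which 2 were below 0 and 3 above. Only vax1 of these was past 1.5-fold, at 0.594 (0.379 to 0.919) on 58 and 35 reads. For 6 ear and placode genes the median was -0.05, with 3 below 0 and 3 above. Among them were dlx4b at 0.656 (0.510 to 0.842) and foxi1 at 1.96 (1.64 to 2.36). For 4 heart and fin genes it was 0.06, with 2 below 0 and 2 above. The 2 above were nkx2.5 at 1.46 (0.833 to 2.59) and gata4 at 1.1 (0.895 to 1.35). In the gastrula list 2 of 7 found genes had enough reads, lft1 at 0.394 (0.256 to 0.593) and vent at 0.786 (0.711 to 0.868). The gene lft1 also belongs to left-right patterning, so it is not a marker of stage alone. The list's gsc, mixl1, ndr1, ndr2 and lft2 had too few reads. The 3 of 9 muscle and blood genes with enough reads had ratios of 1.22 to 1.62, the highest being hbae3 (37 and 61 reads, 1.06 to 2.51). The others were actc1b at 1.38 (442 and 619 reads, 1.22 to 1.56) and tnnt3b at 1.22 (54 and 67 reads, 0.841 to 1.78). Of the 3 intervals 2 lay wholly above 1 (19.5% of all genes, not matched for depth). The part of territory size or of stage in the lower fgf3, fgf8a, spry2, spry4 and dusp6 was not tested. Across the 15 lists other than the 9 genes, 12 of 114 genes with enough reads were 1.5-fold lower (3.24% of all genes) and 3 were 1.5-fold higher (6.11%).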

How the data were processed

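The RNA tables of whole embryos hold, per the file headers, deposited counts of unique reads per row. A dash was read as 0. They also give the covered fraction of each listed length and RPKM, both deposited by the authors. The RPKM equal the reads divided by listed length and library total, to within a relative difference of 1.1e-14. TopHat2, BWA, HTSeq 0.6.1 and MACS2 are named in the submitters' processing notes, with no role. Not given in the sources used here: build, annotation release and strand setting. Values of the methylation libraries were not used.

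Rows of an ID were summed (25022 rows, 24832 IDs). Symbols came from the Ensembl name (8408 IDs), else the RefSeq protein of the listed best match (7817), else the zebrafish gene number in the KEGG column where 1 ID held it (2172). Among IDs named by the closer sources, the KEGG number gave the same symbol for 98.8% of 4904. Of the 9 genes, these sources named 2, 4 and 3, and 6435 IDs had no zebrafish symbol.

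Log2 ratios are edgeR 4.0.16 log2 CPM (R 4.3.3; prior count 2, scaled by total reads) of the genes whose reads in the libraries sum to 50 or more, and calls of 1.5-fold or 2-fold use them. Ratios in the text have no prior. Their 95% intervals come from the exact (Clopper-Pearson) bounds on the share of a gene's reads found in morphants. Ratios of ratios have the exact conditional interval of the odds ratio. RPKM are compared between genes because they are per length. Intervals were computed with SciPy 1.17.1, tables with pandas 2.3.3 and numpy 2.4.6, and plots with matplotlib 3.10.9, under Python 3.11.15. On simulated counts for 13575 genes, 99.0% of 200 genes changed 2.5-fold or 4-fold passed 2-fold, as did 0.0673% of unchanged genes, and 95.6% of intervals held the true ratio. That step had counting error only.

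The genes and lists were chosen with earlier results of these data known. Genes of other lists are named if 1.5-fold higher or lower, otherwise the 2 largest ratios. The most abundant gene of the ligand, receptor and inhibitor lists is also named. Further genes, such as il17rd, etv5a, fgf4, fgf8b, fgf10b, spry1, dusp5, tbxta, tbxtb, actc1b and tnnt3b, were added after their values were seen. So were the genes of the inhibitor list whose intervals lay wholly below or above 1. No likeness of pattern was computed over 2 libraries. Protein and promoter sequences, planned at the start, were not analysed here.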

Additional observations from a re-analysis of the deposited data

How the results depend on the processing

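Over the alternatives run (TMM scaling, centring on the median of all genes, RPKM with a pseudocount of 1, smaller prior, other read minimums, the best row per ID, other naming), none of the 9 genes changed sign and none reached 1.5-fold. Most of these could hardly alter a ratio of the 9, so this is not a check of their size. Each of the 9 has 1 row, and read minimums and naming only drop genes. TMM scaling and centring shift all genes by nearly the same small amount. The median log2 ratio lay between -0.39 and -0.29. With Ensembl names alone 2 of the 9 remain, both below 1, with 1 interval below 1 and 0 above. Naming without the KEGG gene number, added after seeing the data as were all alternatives for these interval counts, leaves 6, without etv4, so 0 intervals lie above 1. In the other lists the number of genes past 1.5-fold was 15 at a minimum of 50 reads, 23 at 10, 34 with none and 9 at 200, and 10 from RPKM at a minimum of 50. The read minimums let in 114, 131, 155 and 89 genes. No paired analysis was possible because each RNA group has 1 library, which also leaves no library that could be omitted. By reads, depth limits fgf24 most, then fgf3.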

Other observations

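Some FGF genes below the read minimum had larger ratios, which rest on few reads. The ligand gene fgf2 was read 10 times in the control library and 29 times in morphants, a ratio of 2.86 (1.35 to 6.57), on a listed model so short that its RPKM of 5.18 and 14.8 are not comparable in kind with those of the other ligands. The intracellular factor gene fgf13a had 19 and 6 reads, a ratio of 0.311 (0.102 to 0.810). The third gene of the Pea3 family beside etv4 and the etv5 genes, etv1, had 3 and 11 reads, a ratio of 3.61 (0.954 to 20.2).

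Genome neighbours, taken from the order of genes in GRCz12tu, were looked up for some of the 9 genes. Their ratios were, for fbxw4 beside fgf8a, 0.858 (0.710 to 1.04), for dhx8 beside etv4, 0.921 (0.858 to 0.989) and for npm1b beside fgf24, 0.934 (0.850 to 1.03). The gene beside spry4, fgf1b, had 0.788 (0.462 to 1.33). These neighbours were chosen after the results were seen.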
